A study of Mus musculus with 8 samples.

Results

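Cohesin is the protein ring that holds sister chromatids together from replication until anaphase, and RNA of 9 genes of this complex and its protection was examined in mouse embryos at the 2-cell stage. The members were taken by gene symbol: the meiosis-specific subunits Rec8, Smc1b and Stag3, the mitotic or shared subunits Smc1a, Smc3, Rad21, Stag1 and Stag2, and the shugoshin Sgo2a. All 9 symbols were found among the 55487 genes of the table. The 4 KD-Polq-labelled libraries came from zygotes injected with the RNA-cutting nuclease CasRX and a guide RNA against Polq, with the genotype given as polq knockdown. The 4 CasRX libraries came from zygotes given as WT and injected with CasRX, with no guide named. Zygotes were injected 20 h after the ovulation-inducing hormone hCG, and embryos were lysed 10 h after injection, at the 2-cell stage. The study asked how lowering Polq, which encodes DNA polymerase theta, affects the whole transcriptome. Each library is a pool of 5 embryos, so that differences between embryos of a pool are not seen, and strain and sex are not given in the labels. In such pools, fewer embryos or cells and less RNA per cell cannot be told apart.

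The ring is built from a pair of SMC ATPases, Smc3 with Smc1a or Smc1b, closed by a kleisin subunit, Rad21 in mitosis and mainly Rec8 in meiosis. A Stag protein, Stag1 or Stag2 in somatic cells and Stag3 in meiosis, binds the kleisin. Mouse oocytes load meiotic cohesin before birth and keep it for months, and Sgo2a, working with protein phosphatase 2A, shields Rec8 at centromeres from the protease separase during the first meiotic division. After fertilisation the embryo turns to mitotic divisions, while many of its RNAs are still those stored by the egg.

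The libraries differed in depth. Totals were 4726159 to 33650050 counts in the KD-Polq-labelled libraries, of which replicates 1, 2 and 3 held at most 8627403, and 33311665 to 43748621 counts in the CasRX libraries. The targeted gene did not separate the groups. Polq was at 16.9, 38.9, 29.2 and 41.1 TMM-scaled counts per 1000000 (CPM; TMM is the trimmed mean of M-values, a scaling between libraries) in KD-Polq-labelled replicates 1 to 4, against 34.6, 49.7, 40.1 and 32.7 CPM in CasRX replicates 1 to 4. The log2 fold change was −0.32 (SE 0.34, edgeR adjusted p = 1), and a 2-sided exact permutation test over 70 assignments gave p = 0.343, where the smallest p possible is 0.0286. Libraries are therefore named by their label. All 9 markers of 2-cell embryos had counts, with a summed level of 1849 to 2215 CPM in the KD-Polq-labelled libraries and 1774 to 2046 CPM in the CasRX libraries. All 11 oocyte and maternal markers had counts in at least 1 library (4035 to 6568 CPM in KD-Polq-labelled libraries, 3864 to 6654 CPM in CasRX libraries). Most of this sum was Oosp1, at 3443 to 5338 CPM in KD-Polq-labelled and 3036 to 5371 CPM in CasRX libraries. Zp1 was at 0 CPM in KD-Polq-labelled replicate 1. Of 12 cumulus and granulosa markers 7 were at 0 throughout, Foxl2, Fshr, Cyp11a1, Inhba, Inha, Has2 and Ptx3, and the sum was at most 10.7 CPM in the KD-Polq-labelled and 21.5 CPM in the CasRX libraries. Of 6 sperm markers 4 were at 0 throughout (Prm1, Tnp1, Tnp2 and Odf1), and the sum was 38.6 to 53.5 CPM in the KD-Polq-labelled libraries and 29.0 to 50.4 CPM in the CasRX libraries, most of it from Odf2, which is not confined to sperm.

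The promoters of the paralogue pair Smc1b and Smc1a and of the other meiotic subunits, Stag3 with counts and Rec8 with none, are shown because the levels of these genes are set against each other below. Each window runs from 250 bases before to 50 bases after the gene start given by RefSeq, read on the gene's strand (GRCm38.p6). Capitals mark TTCCCGC, a motif of E2F factors, the family of E2f6, which is known to silence Smc1b and Stag3 in mouse somatic cells. The windows are chr15:85131908-85132207 on the minus strand for Smc1b and, on the plus strand, chrX:152016178-152016477 for Smc1a, chr5:138280259-138280558 for Stag3 and chr14:55617916-55618215 for Rec8.
Smc1b: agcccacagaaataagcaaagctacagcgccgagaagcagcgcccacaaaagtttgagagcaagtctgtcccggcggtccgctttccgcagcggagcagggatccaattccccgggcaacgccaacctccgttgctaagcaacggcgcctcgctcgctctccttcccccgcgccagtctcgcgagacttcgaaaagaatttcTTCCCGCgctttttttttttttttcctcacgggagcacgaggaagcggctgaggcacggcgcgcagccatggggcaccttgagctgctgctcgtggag
Smc1a: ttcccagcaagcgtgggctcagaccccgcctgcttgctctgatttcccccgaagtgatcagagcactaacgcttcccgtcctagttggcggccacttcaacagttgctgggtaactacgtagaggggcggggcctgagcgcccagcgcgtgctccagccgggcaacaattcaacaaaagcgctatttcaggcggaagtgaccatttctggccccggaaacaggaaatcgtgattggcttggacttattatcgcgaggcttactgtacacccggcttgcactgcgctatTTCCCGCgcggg
Stag3: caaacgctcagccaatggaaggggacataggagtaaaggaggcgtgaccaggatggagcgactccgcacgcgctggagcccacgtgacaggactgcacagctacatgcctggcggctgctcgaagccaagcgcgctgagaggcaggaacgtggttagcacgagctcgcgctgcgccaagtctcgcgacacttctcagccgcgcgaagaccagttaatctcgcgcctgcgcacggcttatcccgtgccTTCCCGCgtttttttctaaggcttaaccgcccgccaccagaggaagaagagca
Rec8: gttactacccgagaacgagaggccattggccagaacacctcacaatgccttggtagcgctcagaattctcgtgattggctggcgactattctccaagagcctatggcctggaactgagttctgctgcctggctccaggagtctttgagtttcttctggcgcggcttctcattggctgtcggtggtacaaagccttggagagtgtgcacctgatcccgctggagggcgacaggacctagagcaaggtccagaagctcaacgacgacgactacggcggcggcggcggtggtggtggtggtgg

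TTCCCGC began 48 bases before the start in Smc1b and 3 bases before it in Stag3, and 38 bases after it in Smc1a, while the Rec8 window did not hold it. On either strand the motif was in 5 of the 8 windows that RefSeq listed for 7 of the members (Smc1b, Stag3, Smc1a, Stag1 and 1 of 2 windows of Sgo2a), against 4.60% of 32851 promoter windows. The Sgo2a window with the motif was chr1:57985090-57985389. The other Sgo2a window, chr1:57995724-57996023, holds the annotated gene start and lacked the motif. The Stag1 window, chr9:100643198-100643497, lies inside the gene, whose annotated start is at 100597798. The Stag3 window begins just after the annotated start at 138280240. The windows are rich in CpG, with 29 in Smc1b, 23 in Smc1a, 30 in Stag3 and 18 in Rec8, where the median window holds 7. The motif itself holds a CpG, and the windows it was compared with were not matched for CpG. In all 8 motifs were searched on both strands, some overlapping each other: TTCCCGC, its longer form GGCGGGAA (reverse strand; no member) and GCGCGAAA (no member), CCAAT (7 member windows, 37.4% of all windows), CACGTG (1, Stag3, 7.15%), TGACGTCA (no member), CCGGAAG (1, Sgo2a, 8.86%) and TATAAA (1, Sgo2a, 13.6%). The 8-letter forms were in 2.19%, 0.323% and 1.79% of windows for GGCGGGAA, GCGCGAAA and TGACGTCA. The windows are promoters of the reference genome, and no binding was measured.

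Rec8, the meiotic kleisin, had 0 counts in all 8 libraries. With 3 counts taken as the limit that a count of 0 allows, Rec8 was under 0.635, 0.348, 0.370 and 0.0892 counts per 1000000 of the library total in KD-Polq-labelled replicates 1 to 4, and under 0.0901, 0.0857, 0.0686 and 0.0737 in CasRX replicates 1 to 4. These limits cover counting error only. Per exonic length, Rad21 was at least 118-fold above the Rec8 limit in KD-Polq-labelled replicate 1 and at least 1634-fold above it in CasRX replicate 3, the shallowest and the deepest library. Rad21l, the other meiotic kleisin, also had 0 counts in every library. A 0 was common in the table, where 27.0% of 21568 protein-coding symbols had no count in any library. Genes on either side of Rec8 on chromosome 14 were counted: Ipo4 had 20 to 333 counts in the KD-Polq-labelled libraries and 113 to 409 in the CasRX libraries, and Irf9 had 43 to 95 counts in the KD-Polq-labelled libraries and 0 to 688 in the CasRX libraries.

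Levels of different genes are compared per kilobase of merged annotated exons, which is longer than most single transcripts. On this scale Rad21 was the most abundant member, with 27.7 ± 5.38 CPM per kilobase in the KD-Polq-labelled libraries and 29.3 ± 7.14 in the CasRX libraries (SD, n = 4 each), above 88.4% of all genes tested. Per kilobase it was higher than every other member in all 8 libraries. Stag2, Sgo2a, Smc1b and Smc3 followed, with means over 8 libraries of 10.5, 10.4, 10.4 and 9.17 CPM per kilobase. These neighbours could not be ordered: each was above the next in 4 or 5 of 8 libraries. Smc3 was above Smc1a, at 5.25, in 8 of 8 libraries, and Smc1a above Stag1, at 3.04, in 8 of 8. Stag1 was above Stag3, at 1.42, in 7 of 8 libraries. Counted without length, the order of Stag1 and Smc1a differed between libraries. Stag1 was the higher in KD-Polq-labelled replicate 1 (27.4 against 14.5 CPM), and Smc1a in CasRX replicate 3 (47.1 against 25.3 CPM). Without length, Stag2 was also above Rad21 in CasRX replicate 1 (163 against 134 CPM). Smc1a was then above Smc3 in KD-Polq-labelled replicate 3 (44.8 against 43.9 CPM).

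**Figure D1:**
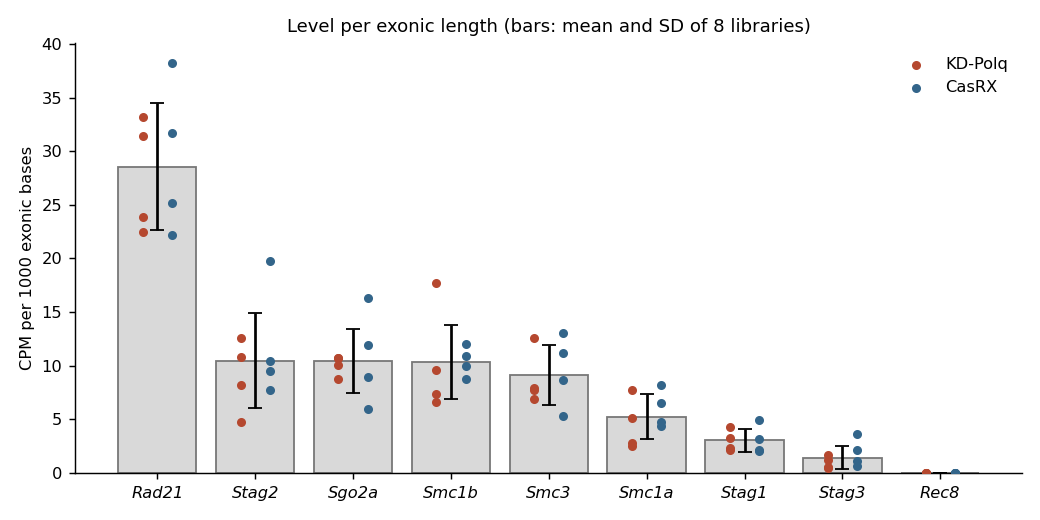
TMM-scaled counts per 1000000 per exonic kilobase for each cohesin gene, with bars for the mean and SD of 8 libraries, red points for KD-Polq-labelled and blue points for CasRX libraries. Rad21 stands highest, Stag2, Sgo2a, Smc1b and Smc3 lie close together, and Rec8 is at 0 throughout.

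Summed over the slots of the ring, Smc1a and Smc1b together were at 14.9 ± 5.08 CPM per kilobase in the KD-Polq-labelled libraries and 16.4 ± 2.91 in the CasRX libraries (SD, n = 4 each). Their partner Smc3 was at 8.78 ± 2.54 in the KD-Polq-labelled libraries and 9.56 ± 3.38 in the CasRX libraries. The ratio of both Smc1 genes to Smc3 ran from 0.992 in KD-Polq-labelled replicate 4 to 2.98 in CasRX replicate 2. The 3 Stag genes summed to 13.1 ± 4.15 in the KD-Polq-labelled libraries and 16.8 ± 4.26 in the CasRX libraries.

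Smc1b, the meiosis-specific SMC1 subunit, was read at 26.8, 71.7, 38.8 and 29.7 CPM in KD-Polq-labelled replicates 1 to 4, against 35.6, 44.1, 48.8 and 40.5 CPM in CasRX replicates 1 to 4. KD-Polq-labelled replicate 2 was the highest and replicate 1 the lowest of all 8, so that the KD-Polq-labelled range enclosed that of CasRX. The fitted difference was near 0 (log2 fold change −0.02, SE 0.35, edgeR adjusted p = 1), with a fitted level of 98.8% of CasRX and a 95% interval from 57.9% to 169%. Its sign had no fixed side: it was −0.40 without KD-Polq-labelled replicate 2 and 0.14 without KD-Polq-labelled replicate 1. It was also positive without KD-Polq-labelled replicates 3 or 4 (0.016 and 0.11), without CasRX replicates 2 or 3 (0.0051 and 0.057), and with other scalings, at 0.0045 (size factors of DESeq2) and 0.0013 (library totals).

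Its mitotic counterpart Smc1a was at 14.5, 16.3, 44.8 and 29.4 CPM in KD-Polq-labelled replicates 1 to 4, against 25.3, 27.5, 47.1 and 37.4 CPM in CasRX replicates 1 to 4. KD-Polq-labelled replicates 1 and 2 lay below every CasRX library, and replicates 3 and 4 lay within the CasRX range. The fitted level was 76.6% of CasRX (95% interval 40.0% to 147%, log2 fold change −0.38, SE 0.42, edgeR adjusted p = 1). Without KD-Polq-labelled replicate 3 the log2 fold change was −0.77, and without KD-Polq-labelled replicate 1 it was −0.19.

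Per exonic length, the meiotic paralogue made up more of the SMC1 RNA than the mitotic paralogue in every library. On that scale Smc1b was 72.5%, 86.3%, 55.2% and 59.0% of Smc1b plus Smc1a in KD-Polq-labelled replicates 1 to 4, against 66.8%, 69.5%, 59.6% and 60.7% in CasRX replicates 1 to 4. The shares of the groups overlapped, with means of 68.2% ± 14.1 in the KD-Polq-labelled libraries and 64.1% ± 4.79 in the CasRX libraries (SD, n = 4 each). The difference of 4.10 percentage points was −1.90 without KD-Polq-labelled replicate 2. Counted without length the means were 60.8% in the KD-Polq-labelled libraries and 55.7% in the CasRX libraries, and in KD-Polq-labelled replicate 3 the CPM of Smc1b, 38.8, was then below that of Smc1a, 44.8. A share within a library does not depend on scaling between libraries.

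Stag3, the meiotic Stag subunit, was the lowest of the 8 detected members, with 16, 80, 22 and 217 counts behind its levels in KD-Polq-labelled replicates 1 to 4 and 209, 110, 909 and 534 in CasRX replicates 1 to 4. These gave 3.17, 9.72, 2.54 and 6.80 CPM in the KD-Polq-labelled libraries, against 6.39, 3.46, 20.8 and 12.4 CPM in the CasRX libraries. The groups overlapped, since CasRX replicate 2 lay below KD-Polq-labelled replicates 2 and 4. The fitted level was 51.7% of CasRX with the widest interval of the members, 15.98% to 168% (log2 fold change −0.95, SE 0.76, edgeR adjusted p = 1). CasRX replicate 3 held the highest value, and without it the log2 fold change was −0.42. Without KD-Polq-labelled replicate 2 it was −1.35.

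Stag1 and Stag2 are the paralogues of somatic cells. Stag1 was at 27.4, 25.4, 38.2 and 51.0 CPM in KD-Polq-labelled replicates 1 to 4, against 24.2, 37.0, 25.3 and 58.2 CPM in CasRX replicates 1 to 4. Stag2 was at 68.0, 39.1, 89.2 and 104 CPM in KD-Polq-labelled replicates 1 to 4, against 163, 78.5, 86.3 and 63.6 CPM in CasRX replicates 1 to 4. In the KD-Polq-labelled libraries both genes were highest in replicate 4, then in replicates 3, 1 and 2. In the CasRX libraries their orders were opposite, and CasRX replicate 1 was the highest of all 8 for Stag2 and the lowest of all 8 for Stag1. The fitted level of Stag1 was 98.3% of CasRX (95% interval 54.9% to 176%, log2 fold change −0.02, SE 0.38), and that of Stag2 was 76.8% of CasRX (43.1% to 137%, log2 fold change −0.38, SE 0.37, edgeR adjusted p = 1 for each). The Stag1 value was 0.30 without CasRX replicate 4, 0.082 and 0.12 without KD-Polq-labelled replicates 1 and 2, and −0.26 without KD-Polq-labelled replicate 4. The Stag2 value was −0.0091 without CasRX replicate 1 and −0.59 without KD-Polq-labelled replicate 4.

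Per exonic length, Stag2 was 78.0%, 68.7%, 76.9% and 74.5% of Stag2 plus Stag1 in KD-Polq-labelled replicates 1 to 4, against 90.6%, 75.1%, 82.9% and 60.9% in CasRX replicates 1 to 4. Stag2 was thus the larger part in every library. Counted without length its mean share was 67.3% in the KD-Polq-labelled libraries and 71.2% in the CasRX libraries. Stag3 was 4.99%, 19.8%, 3.06% and 6.54% of the 3 Stag genes in KD-Polq-labelled replicates 1 to 4, against 4.86%, 4.57%, 22.4% and 14.7% in CasRX replicates 1 to 4. Low and high shares of Stag3 were found in both groups. Without length the mean Stag3 share was 5.62% in the KD-Polq-labelled libraries and 7.80% in the CasRX libraries. The difference of −3.03 percentage points for Stag3 was 0.562 without CasRX replicate 3, and that of −2.89 for Stag2 was 1.496 without CasRX replicate 1 and −8.39 without CasRX replicate 4.

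**Figure D2:**
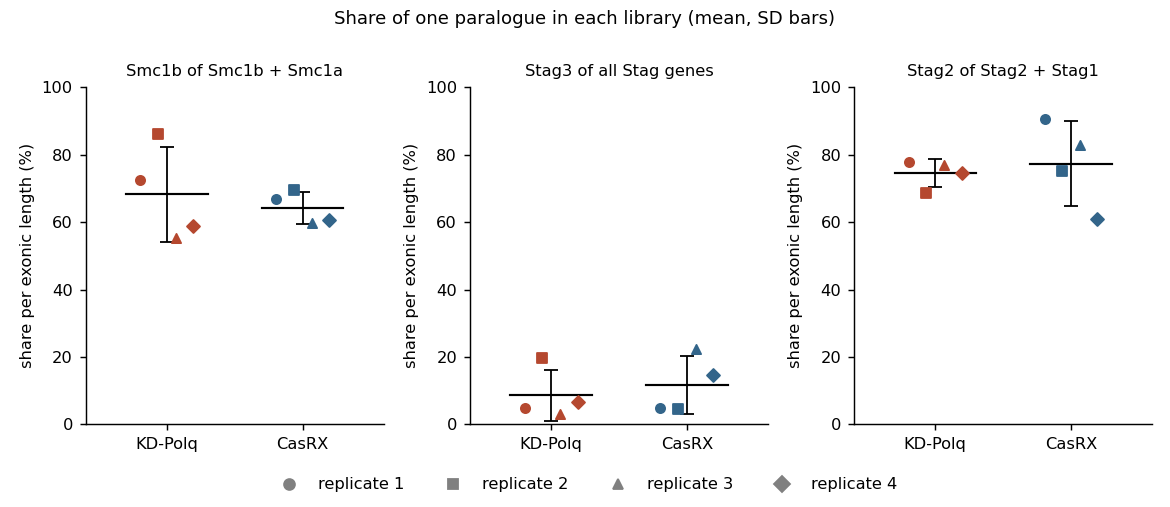
Share in percent, per exonic length, of Smc1b in both Smc1 genes, of Stag3 in the 3 Stag genes and of Stag2 in Stag1 and Stag2, for each library, with KD-Polq-labelled libraries left and CasRX libraries right, and lines for the mean and SD of 4. Smc1b exceeds 55% in every library, and the groups overlap in each panel.

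Rad21, the mitotic kleisin, varied least among the tested members, with a within-group SD of 0.32 on the log2 CPM scale. Of the genes nearest to Rad21 in abundance, 28% had a smaller SD, and for Smc1b this share was 23%. Rad21 was at 101, 95.01, 133 and 141 CPM in KD-Polq-labelled replicates 1 to 4, against 134, 93.8, 162 and 107 CPM in CasRX replicates 1 to 4. The KD-Polq-labelled values lay inside the CasRX range. Its fitted level of 94.7% of CasRX had the narrowest interval of the members, 65.8% to 136% (log2 fold change −0.08, SE 0.23, edgeR adjusted p = 1). The value was 0.072 without CasRX replicate 3 and 0.019 without KD-Polq-labelled replicate 2.

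Smc3, the SMC subunit common to all cohesin rings, was at 43.0, 38.3, 43.9 and 69.5 CPM in KD-Polq-labelled replicates 1 to 4, against 62.1, 29.2, 72.5 and 48.2 CPM in CasRX replicates 1 to 4. KD-Polq-labelled replicate 4 and CasRX replicates 1 and 3 were high, and CasRX replicate 2 was the lowest. The fitted level was 92.0% of CasRX (95% interval 55.0% to 154%, log2 fold change −0.12, SE 0.33, edgeR adjusted p = 1), and the value was 0.066 without CasRX replicate 3 and −0.35 without KD-Polq-labelled replicate 4.

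Sgo2a, the shugoshin that protects centromeric Rec8 in oocytes, was at 75.4, 61.6, 70.4 and 75.1 CPM in KD-Polq-labelled replicates 1 to 4, against 41.9, 62.9, 114 and 83.4 CPM in CasRX replicates 1 to 4. The KD-Polq-labelled values lay inside the CasRX range. The SD of log2 CPM was 0.14 in the KD-Polq-labelled libraries and 0.61 in the CasRX libraries, a difference in spread that was not tested. The fitted level was 93.3% of CasRX (95% interval 58.6% to 149%, log2 fold change −0.10, SE 0.30, edgeR adjusted p = 1), and the value was 0.17 without CasRX replicate 3. Sgo2a counts were fractional in all 8 libraries, as happens where reads are divided among genes. Its exons overlap those of Kctd18 on the opposite strand, and its relative Sgo2b had 33 counts in KD-Polq-labelled replicate 1, 19 in CasRX replicate 2 and 0 in the other libraries.

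**Figure D3:**
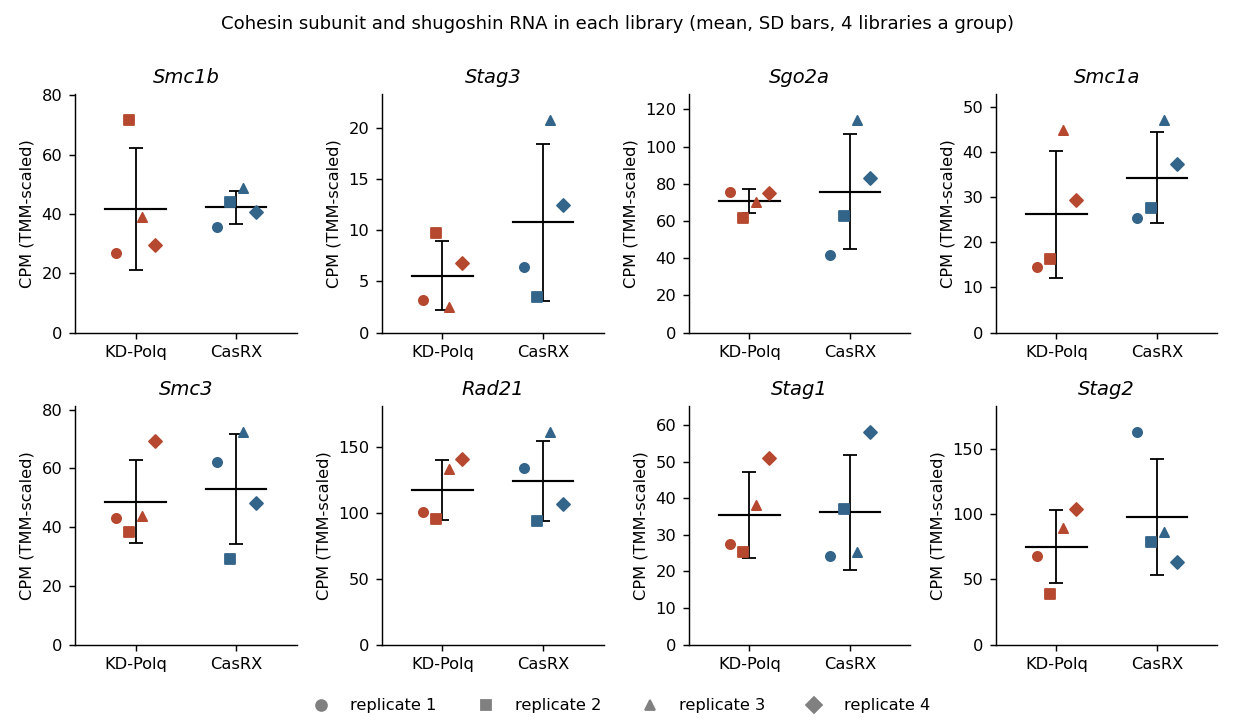
TMM-scaled counts per 1000000 of the 8 detected cohesin genes in each library, with KD-Polq-labelled libraries left and CasRX libraries right, a marker for each replicate, and lines for the mean and SD of 4. The groups overlap for every gene, and CasRX replicate 3 is highest for 5 of the 8.

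None of the 8 tested members passed the edgeR test between the groups, where 0% of the 13146 genes tested passed (0 genes, 369 at an unadjusted p under 0.05, which is 2.81%). At an unadjusted p under 0.05 the member count was also 0, and the smallest unadjusted p was 0.240, for Stag3. DESeq2 called 0.154% of genes (20 of 13002) and limma-voom 0%, with 6.56% of genes at an unadjusted p under 0.05 by limma-voom. Neither tool called any of the members. All 8 members had overlapping groups, as did all but 2.98% of genes. All 8 log2 fold changes were negative, with a median of −0.11, beside 53.4% negative, 46.6% positive and a median of −0.05 over all genes tested. Without CasRX replicate 3, which was the highest library for Stag3, Smc1a, Smc3, Rad21 and Sgo2a, 4 were positive and 4 negative. With KD-Polq-labelled replicate 4 as the only library of its group, the split was 4 and 4 as well. The intervals reached down to 65.8% of CasRX for Rad21 and to 15.98% for Stag3.

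**Figure D4:**
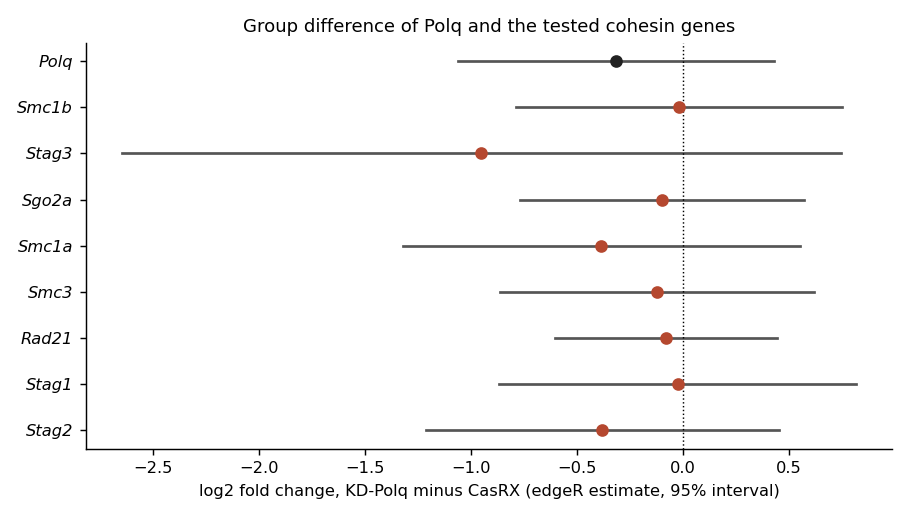
edgeR log2 fold changes, KD-Polq-labelled minus CasRX, with 95% intervals, for Polq (black) and the 8 tested cohesin genes (red). Every interval includes 0, and that of Stag3 is the widest.

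The genes that load, release and acetylate cohesin were measured in the same libraries, and 0 of the 6 loading and release genes and 0 of the 11 genes of cohesion establishment passed. Wapl, which opens the ring and releases cohesin from chromatin, was the most abundant of the first group, at 951 ± 153 CPM in the KD-Polq-labelled libraries and 1168 ± 331 CPM in the CasRX libraries (SD, n = 4 each, log2 fold change −0.30, SE 0.22). Mau2, a partner of the loader Nipbl, was at 5.30 ± 3.74 CPM in the KD-Polq-labelled libraries and 2.00 ± 0.480 CPM in the CasRX libraries (1.40, SE 0.99). The 6 genes had 3 positive and 3 negative values (median −0.02). In the establishment group, with 4 positive and 7 negative values (median −0.05), the replication fork protein Tipin was the most abundant, at 1287 ± 179.9 CPM in the KD-Polq-labelled libraries and 1455 ± 184 CPM in the CasRX libraries. Chtf18 and Dscc1, subunits of the alternative clamp loader that aids cohesion, had the smallest p in each direction without passing. Chtf18 was at 0.793, 0, 1.04 and 0.658 CPM in KD-Polq-labelled replicates 1 to 4, against 3.61, 12.1, 4.48 and 1.26 CPM in CasRX replicates 1 to 4, and the groups did not overlap (unadjusted p = 0.0511, edgeR adjusted p = 1). Over all genes tested, 2.98% had groups that did not overlap. CasRX replicate 2 was the highest for Chtf18, and the value of −3.10 (SE 1.40) was −2.31 without that library. Chtf18 was too low to be tested with the filter of 5 CPM in 4 libraries or with thinning to the smallest library total. Exons of Chtf18 overlap those of Gng13 on the other strand. Dscc1 was at 13.1, 15.4, 22.5 and 21.6 CPM in KD-Polq-labelled replicates 1 to 4, against 0.581, 6.39, 0.389 and 18.4 CPM in CasRX replicates 1 to 4 (1.49, SE 1.04), a value that was 2.89 without CasRX replicate 4 and 3.08 with limma-voom (adjusted p = 0.747). Its exons overlap those of Gm41325 on the other strand.

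Of the 17 genes of cohesin protection and cleavage, 0 passed, with 7 positive and 10 negative values (median −0.08). Pttg1, the securin that holds separase in check, was the most abundant at 2862 ± 423 CPM in the KD-Polq-labelled libraries and 3077 ± 539 CPM in the CasRX libraries (log2 fold change −0.10, SE 0.16). Sgo1, the shugoshin of mitosis, was at 118 ± 23.8 CPM in the KD-Polq-labelled libraries and 151 ± 37.3 CPM in the CasRX libraries (−0.36, SE 0.23). Plk1, a mitotic kinase that promotes cohesin removal from chromosome arms, was at 22.6, 8.26, 14.6 and 9.34 CPM in KD-Polq-labelled replicates 1 to 4, against 2.75, 4.66, 6.38 and 4.47 CPM in CasRX replicates 1 to 4. Its groups did not overlap, but it did not pass (1.58, SE 0.60, unadjusted p = 0.0240, edgeR adjusted p = 1). Plk1 had the smallest p among the higher genes of this list. Of all genes 1.1% were higher and 1.71% lower at an unadjusted p under 0.05, and 2.98% had groups that did not overlap. Exons of Plk1 overlap those of Gm44985 on the other strand.

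Among the 5 genes of the chromosomal passenger complex, whose kinase acts at centromeres, 0 passed (3 positive, 2 negative, median 0.10). Birc5, its survivin subunit, was at 497 ± 48.6 CPM in the KD-Polq-labelled libraries and 530 ± 56.7 CPM in the CasRX libraries. Aurkc and Aurkb were the genes of this list with the smallest p in each direction. Of all genes tested, 2.98% had groups that did not overlap. Aurkc, the kinase paralogue of germ cells and early embryos, was at 41.1, 24.2, 30.5 and 23.5 CPM in KD-Polq-labelled replicates 1 to 4, against 15.4, 17.7, 22.8 and 12.5 CPM in CasRX replicates 1 to 4, without overlap (0.80, SE 0.35, unadjusted p = 0.0453, edgeR adjusted p = 1). Aurkb, the paralogue of somatic cells, was at 0.595, 14.5, 11.3 and 12.2 CPM in KD-Polq-labelled replicates 1 to 4, against 33.4, 12.5, 18.9 and 25.4 CPM in CasRX replicates 1 to 4 (−1.22, SE 0.74, edgeR adjusted p = 1). KD-Polq-labelled replicate 2 lay within the CasRX range and replicate 1 was close to 0.

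The other SMC complexes and the meiotic chromosome axis with the synaptonemal complex gave 0 genes past the test as well. Of 14 genes of condensin and the SMC5/6 complex, 7 were positive and 7 negative (median −0.0025). Smc4, the condensin ATPase, was at 94.95 ± 23.8 CPM in the KD-Polq-labelled libraries and 73.2 ± 32.4 CPM in the CasRX libraries (log2 fold change 0.38, SE 0.34). Smc6 was at 251 ± 35.1 CPM in the KD-Polq-labelled libraries and 282 ± 48.3 CPM in the CasRX libraries. The SUMO ligase Nsmce2, the most abundant, was at 507 ± 74.6 CPM in the KD-Polq-labelled libraries and 465 ± 80.1 CPM in the CasRX libraries. Of 9 genes of the meiotic axis and synaptonemal complex 7 were abundant enough to test, with 1 positive and 6 negative values (median −0.21). Sycp3, a core protein of the axis on which meiotic cohesin sits, was at 622 ± 175 CPM in the KD-Polq-labelled libraries and 750.0 ± 397 CPM in the CasRX libraries (−0.27, SE 0.33), a value that was 0.18 without CasRX replicate 2. Its exons overlap those of Chpt1 on the other strand. Hormad1, a meiotic checkpoint adaptor, was at 461 ± 143 CPM in the KD-Polq-labelled libraries and 421 ± 101 CPM in the CasRX libraries (0.13, SE 0.24), and was −0.10 without KD-Polq-labelled replicate 3. Syce3, of the central element of the synaptonemal complex, was at 2.97 ± 0.931 CPM in the KD-Polq-labelled libraries and 5.85 ± 2.84 CPM in the CasRX libraries.

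For each tested member the gene nearest in pattern was sought among named genes whose mean log2 CPM was 4 or more, by the root mean square difference of centred log2 CPM over the 8 libraries. Rad21 lay 0.12 from LTO1, and Smc1b 0.14 from E2f4, which was also highest in KD-Polq-labelled replicate 2. Sgo2a lay 0.17 from Tasp1, Stag1 0.17 from St3gal6, Smc3 0.19 from Eapp, Smc1a 0.21 from Rbm27 and Stag2 0.22 from Sat1. Stag3 lay 0.45 from Scai. This distance grows with the spread of the member itself, which was 1.04 for Stag3 and 0.30 for Rad21 (SD of log2 CPM over 8 libraries), so it does not rank the members. In a search over 4366 candidates some near pattern is always found, and depth and scaling are shared by all genes of a library.

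In GRCm38, with the GENCODE M21 annotation, all 9 members are protein-coding. Rec8 (ENSMUSG00000002324.8) lies on chromosome 14 from 55618037 to 55625395, Smc1b (ENSMUSG00000022432.7) on chromosome 15 from 85064689 to 85131964, and Stag3 (ENSMUSG00000036928.14) on chromosome 5 from 138280240 to 138312393. Smc1a (ENSMUSG00000041133.11) lies on chromosome X from 152016428 to 152062694, Smc3 (ENSMUSG00000024974.10) on chromosome 19 from 53600398 to 53645833, and Rad21 (ENSMUSG00000022314.10) on chromosome 15 from 51962240 to 51991747. Stag1 (ENSMUSG00000037286.15) lies on chromosome 9 from 100597798 to 100959375, Stag2 (ENSMUSG00000025862.14) on chromosome X from 42149317 to 42277185, and Sgo2a (ENSMUSG00000026039.9) on chromosome 1 from 57995971 to 58025899. Besides Sgo2a, Stag2 has exons that overlap Gm37564 on the opposite strand, which had 0 counts in every library.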

How the data were processed

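Total RNA of 8 pools of 2-cell embryos was sequenced, with libraries made by the NEBNext Ultra RNA kit, per the labels. The table the authors deposited holds expected counts without normalisation. The submitters' processing notes name RSEM 1.2.28, STAR 2.7.3a, Trim Galore 0.6.10 and the build GRCm38 (mm10). Not given in the sources used here: the annotation release and the strand setting. Where exons of 2 genes overlap on opposite strands, their reads may therefore be mixed. RSEM divides shared reads among genes by estimation.

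Of 55487 genes, 26410 had a count above 0 after rounding. Expected counts were rounded (4.22% of values were not whole), and genes were filtered with filterByExpr (minimum count 10, minimum total 15), which left 13146. Groups were compared with edgeR 4.0.16 in R 4.3.3 (quasi-likelihood test, robust, TMM scaling, group only), with Benjamini-Hochberg adjustment over all genes and a threshold of 0.05. Standard errors were derived from this fit, as the absolute log2 fold change divided by the square root of the test's F statistic. The 95% intervals are symmetric t intervals built from these errors on the log2 scale. Alternatives were DESeq2 1.42.0 (144 genes had no adjusted p), limma-voom (limma 3.58.1), other scalings, filters and depths, a replicate block, and leaving out libraries.

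Molecular identifiers are not mentioned in the labels, and intervals on counts cover counting error only. The series text calls the samples biological replicates; pools are not tied to litters or days. The members and gene lists were chosen with earlier results of these data known. Genes named are Polq, the members, the most abundant gene of each list with the smallest p in each direction, and the nearest gene in pattern. GENCODE M21 (GRCm38) gave coordinates and exonic lengths, and RefSeq (GRCm38.p6) the promoter windows.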

Additional observations from a re-analysis of the deposited data

Results flagged for a closer look

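Among 58 groups of 4 values looked at for the genes and shares above, 1 held a library far from the rest. Chance gives about 1 in 20, which is a larger share than was found. Sycp3 was at 1344 CPM in CasRX replicate 2, against 514 to 585 CPM in the other CasRX libraries, and the gap was 0.915 of the range of the group.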

How the results depend on the processing

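No member passed under any alternative run, and the count of genes called stayed at 0 except with DESeq2, which called 20. With 1 library left out both counts were 0 and the Polq log2 fold change ran from −0.47 to −0.11. Member directions were less firm. Smc1b turned positive with DESeq2 size factors (0.0045), library totals alone (0.0013), the filter of 5 CPM in 4 libraries (0.0060), DESeq2 (0.0044) and thinning to 4726159 counts (0.049). Stag1 turned positive with limma-voom (0.20), thinning (0.022) and the replicate block (0.0096), and Smc3 and Rad21 with limma-voom (0.061 and 0.00055). With KD-Polq-labelled replicate 4 alone, assumed to vary like the controls, the values that turned from negative to positive were 0.073 for Polq, 0.40 for Smc3, 0.19 for Rad21, 0.50 for Stag1, 0.098 for Stag2, 0.086 for Pttg1, 0.093 for Smc6 and 0.20 for Sycp3. The causes were not tested. With 1 library left out, ranges were −0.40 to 0.14 for Smc1b, −0.35 to 0.066 for Smc3, −0.19 to 0.072 for Rad21, −0.26 to 0.30 for Stag1, −0.29 to 0.17 for Sgo2a, −0.46 to 0.18 for Sycp3 and −0.10 to 0.32 for Hormad1. The share differences in percentage points ran from −1.90 to 8.44 for Smc1b, −6.75 to 0.562 for Stag3 and −8.39 to 1.496 for Stag2. The labels do not say whether same-numbered libraries were prepared together. Deviations from the group mean of same-numbered libraries correlated at −0.32, −0.0816, −0.0384 and 0.0928 over 3164 genes. Those of KD-Polq-labelled replicate 1 and CasRX replicate 2 correlated at 0.355. Deviations within a group sum to 0, so these correlations cannot decide whether the samples were paired. No gene passed edgeR with the replicate block (0 genes; 293 had an unadjusted p below 0.05), and the Dscc1 log2 fold change was then 2.90, against 1.49 without it. In an alternative chosen after seeing the data, the distance of Smc1b from E2f4 was 0.21 with thinned counts. Depth limits Stag3, which rested on 16 and 22 counts in KD-Polq-labelled replicates 1 and 3.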
